A study of Mus musculus with 37 samples.

Results

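The autophagy machinery of mouse bone marrow-derived dendritic cells was represented by 87 open reading frames (ORFs) of 38 gene families, out of 22367 ORFs of 10418 families that the authors scored as translated. An ORF runs from a start codon to the first stop codon in its frame. The members were taken by name from that list: the ATG genes, the ULK kinases, the LC3 and GABARAP genes, Wipi1 and Wipi2, and 12 further named genes, among them Becn1, Sqstm1 and Pik3c3. The list was made from ribosome footprints, fragments of 28 to 34 nucleotides that translating ribosomes shield from nuclease.

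The cells were grown from marrow of C57BL/6J mice, 6 to 8 weeks old by their labels, without any genetic change named there, and 37 libraries were made. Lipopolysaccharide (LPS), a molecule of the bacterial outer membrane that Toll-like receptors sense, was given at 100 ng/mL for 8 times from 0.5 to 12 h. Cycloheximide (100 ug/mL, 1 min), an inhibitor that freezes ribosomes during elongation, was used in 16 LPS, 8 mock-treated and 2 naive libraries, and no inhibitor in 8 LPS libraries and 1 naive library. Harringtonine (1 ug/mL, 5 min) and lactimidomycin (50 ug/mL, 30 min), which stall ribosomes where they initiate, were each applied to 1 library of mixed LPS times. The deposited list pooled these libraries and gave 1 score per ORF, from 500 to 991, with no value per library. LPS, mock and inhibitor groups were therefore not compared, no value below has a replicate, and the depth behind each ORF is unknown. The values describe which ORFs of autophagy genes were listed, and not how much of each protein was made. No test was run on the members, whose shares stand beside those of the whole list.

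Of 11 dendritic cell marker genes, 9 had an ORF, among them Itgax, Zbtb46, Cd74 and Ccr7, while Flt3 and Cd209a had none. The list also held 8 of 8 neutrophil markers, such as S100a8 and Mpo, 5 of 7 macrophage markers, 1 of 6 T cell markers (Lck) and 1 of 5 B cell markers (Cd79a). Which of the cells in the culture gave the autophagy ORFs was not tested.

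Autophagy encloses cytoplasm, organelles or microbes in a double membrane, the autophagosome, and delivers them to lysosomes. The ULK1 kinase complex starts the process, and the class III PI3-kinase complex around Beclin 1 then marks the membrane with the lipid PI3P. PI3P effectors and lipid transfer proteins help the membrane grow, and a pair of ubiquitin-like conjugation systems attaches ATG8 proteins (LC3 and GABARAP) to it, where cargo receptors bind. In dendritic cells the pathway is known for handling microbes and for feeding antigens to the MHC class II route. Short ORFs upstream of a coding sequence are known in many genes to limit how many ribosomes reach it.

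A start codon was taken as read only where an ATG stood at the listed place, as it did for 3 members. Only these sequences are shown, so their ATG was the rule for showing them. Of the 3, 2 begin upstream ORFs of the membrane-marking steps and the other begins a main coding sequence. No genome of the files' build was used, so the start was looked up in RefSeq promoter windows (GRCm38.p6), which hold 50 bases after each gene's start, at the distance from the transcript start that the list gives. Capitals mark the ORF from its ATG, whole in Uvrag and its ATG in the others.
Uvrag upstream ORF, minus strand, chr7:99141097-99141123: gcggtaatATGGCTCTTCCTTAGccag
Wipi2 upstream ORF, plus strand, chr5:142629591-142629613: gggacgggATGaggcggcagttg
Atg14 main ORF, minus strand, chr14:47568392-47568414: agatcatcATGgcgtctcccagt
In Uvrag, the window holds the listed 4-codon ORF complete, with an ATG at 29 bases and the stop codon TAG where the list ends it. In Wipi2 (15 bases) and Atg14 (28 bases) no in-frame stop codon follows within the window. A purine stands 3 bases before the ATG in each of them, the base that matters most in the favoured start context, and a G follows the ATG in Uvrag and Atg14 but not in Wipi2. The other 4 member starts within reach, of Atg4a, Atg4d and Sqstm1, did not fall on an ATG at the listed distance, which says nothing about their start codons, since listed and RefSeq transcripts can begin at different bases. Over the whole list, 568 of 1074 starts within reach (52.9%) fell on an ATG, against 9 (0.838%) at the position 1 base later, and the 23 that fit whole in the window all had a stop codon at their listed end.

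Upstream ORFs were listed in 13 of the 38 autophagy families (34.2%, exact Clopper-Pearson 95% interval 19.6 to 51.4 over families, which covers counting error only), where ORFs that start upstream and run over the start of the main ORF are counted too. By main ORF the longest one in a family is meant. In the whole list, 20.2% of families had such an ORF, a share inside the interval of the members. An ORF that ended before the main start was found in 9 families (23.7%, against 16.3% of all families), and one over the main start in 5 (13.2%, against 5.3% of all families, interval 4.41 to 28.1), with Atg13 in both. These were 14 upstream ORFs with a median of 21.5 codons and 6 over the main start with a median of 38, next to medians of 16 and 37.5 in the whole list. All 20 lay on a listed transcript that also holds the main start, as did 3324 of 3549 in the whole list.

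By step of the pathway, upstream ORFs were listed in 5 of 6 families of the class III PI3-kinase complex, 5 of 11 conjugation enzymes, 2 of 6 families of lipid transfer, ATG9 and PI3P effectors and 1 of 5 of the induction kinase complex. None was listed in the 5 ATG8 proteins or the 5 cargo receptors, where the 20.2% of all families would amount to about 1 family in each. With the main ORF chosen by score in place of length, the PI3-kinase complex had 2 of 6 (Ambra1 and Pik3r4) and the conjugation enzymes 4 of 11, and among scores of 900 or more these were 1 of 4 (Ambra1) and 2 of 8. Under both settings the upstream ORFs of Becn1 (982) and Uvrag (927) took the place of the main ORF, so these families no longer counted. By score, this also held for Pik3c3. With 5 or 6 families a role the intervals are wide, 35.9 to 99.6% for the PI3-kinase complex and 0 to 52.2% for the ATG8 proteins or the receptors, so that these intervals overlap, and differences between roles were not tested.

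**Figure D1:**
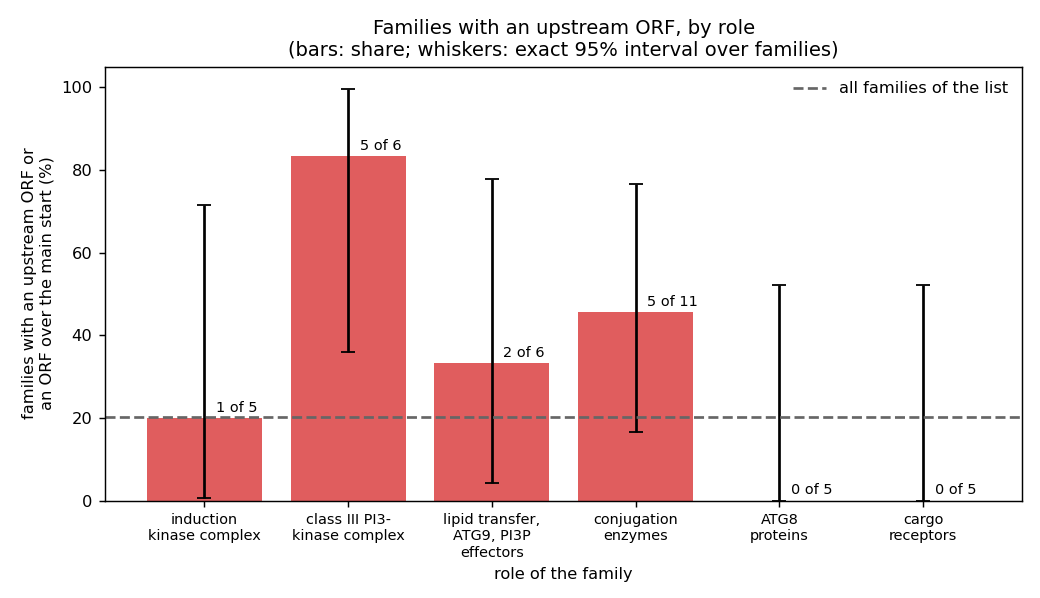
Share of families, in percent, with an upstream ORF or an ORF over the main start, for each role in autophagy; bars give the share, whiskers the exact 95% interval over families, and the dashed line the 20.2% of all families. The PI3-kinase complex reaches 5 of 6 families, or 2 of 6 with main ORFs chosen by score, and the ATG8 proteins and cargo receptors are at 0 of 5 each.

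The class III PI3-kinase complex makes the PI3P that marks the forming membrane. Its catalytic subunit is Pik3c3 (VPS34), Pik3r4 (VPS15) is the regulatory kinase-like subunit, Becn1 (Beclin 1) the scaffold, and Atg14, Uvrag and Ambra1 bind it. In Becn1, a 19-codon upstream ORF in exon 1 scored 982, the highest of the 20 and above the 828 of the 448-codon main ORF. It lay on chromosome 11, 101163480 to 101163539, and stopped 36 bases before the main start, while the main ORF covered 101150127 to 101163168 on the same, minus strand. From here on, coordinates are those of the list (mm9, counted from 1), unlike the GRCm38.p6 positions printed with the sequences, and distances are in transcript bases.

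Ambra1, which links Beclin 1 to its regulators, had 3 upstream ORFs ahead of a 1300-codon main ORF with a score of 971 (chromosome 2, plus strand, 91606723 to 91757980). An ORF of 4 codons at 91606635 to 91606649 scored 968, almost as high as the main ORF, and stopped 73 bases before it. It lies inside the span of a 35-codon ORF in another frame at 91606610 to 91606717, whose score was 846 and whose stop lay 5 bases before the main start. The 13-codon ORF at 91570350 to 91570391, in exon 1, had a score of 589 and ended 264 bases before it. The shortest of the 3 thus had the highest score.

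Uvrag, a Beclin 1 partner that also acts in endosome maturation, had the 4-codon upstream ORF whose bases are printed above. It scored 927 against 782 for the 724-codon main ORF (chromosome 7, minus strand, 106036400 to 106289538), lay at 106289611 to 106289625 and stopped 72 bases before the main start, all within exon 1. Pik3r4 had an ORF of 39 codons over its main start, from exon 1 into exon 2 (chromosome 9, plus strand, 105545716 to 105546640), which scored 566 and overlapped the main ORF by 74 bases in another frame. The 1358-codon main ORF of Pik3r4 scored 872.

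Pik3c3 differed from the others in its transcript. Its 887-codon main ORF (score 793, chromosome 18, plus strand, 30432605 to 30507391) began 6830 bases into the first exon of the listed transcript, against a median leader of 179 bases over the 38 member main ORFs. The 4 upstream ORFs in that leader were long: 181 and 180 codons from starts 1 codon apart with a common stop (scores 698 and 870), 56 codons (833) and 43 codons (743). They stopped 3831, 1627 and 1556 bases before the main start. Whether they belong to Pik3c3 or to another transcription unit was not tested. Atg14, the subunit that directs the complex to autophagosomes, was the family of this group without an upstream ORF, with splice forms of 492 and 489 codons that share their start (score 926) after a leader of 28 bases.

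Among the conjugation enzymes, 3 of the 5 carriers had an ORF that runs over the main start. Atg5 is joined to Atg12 to form the enzyme that places ATG8 proteins on membranes. Its 275-codon main ORF scored 986 (chromosome 10, plus strand, 44005896 to 44082858), and an 11-codon ORF at 44005871 to 44005906 scored 918, began 25 bases before the main start and overlapped it by 11 bases. Atg4a, a protease that trims ATG8 proteins and releases them from lipid, had a 53-codon ORF (952) that began 14 bases before the main start and overlapped it by 148 bases, crossing into the next exon. The 396-codon main ORF of Atg4a scored 947, so both starts had nearly equal scores (X chromosome, plus strand, 137491487 to 137522731 and 137491501 to 137597857).

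Atg3, the enzyme that hands ATG8 proteins to lipid, had ORFs of 67 and 21 codons with a common stop that overlapped its main start by 13 bases (chromosome 16, plus strand, ending at 45159225, with starts at 45159022 and 45159160). Their scores were 539 and 725, both below the 934 of the 314-codon main ORF. Atg4d, another ATG4 protease, had a 25-codon upstream ORF (898, against 913 for the 474-codon main ORF) at chromosome 9, 21069763 to 21069840, that stopped 86 bases before the main start. Atg16l1, which brings the Atg12 and Atg5 conjugate to the membrane, had a 12-codon upstream ORF (609) at chromosome 1, 89652715 to 89652753, 21 bases before a 623-codon main ORF with a score of 871. Scores of upstream ORFs in this group thus ran from near the lowest listed to above that of the main ORF.

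In the group that supplies membrane and reads PI3P, Wipi2 and Atg9a had upstream ORFs. Wipi2, a PI3P-binding protein that recruits Atg16l1, had the 24-codon ORF shown above, with a score of 810 against 739 for the 462-codon main ORF. It lay at chromosome 5, 143105553 to 143105627, and stopped 34 bases before the main start at 143105662. Atg9a, the lipid-scrambling membrane protein of autophagy vesicles, had a 14-codon ORF in exon 1 (648, against 860 for the 839-codon main ORF; chromosome 1, minus strand, 75188568 to 75188612) that stopped 254 bases before it.

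In the induction kinase complex the single carrier was Atg13, the adaptor that binds ULK1 to the scaffold Rb1cc1 (FIP200). Its 479-codon main ORF scored 962 (chromosome 2, minus strand, 91516543 to 91536143). An 11-codon ORF at 91550648 to 91550683 (675) stopped 257 bases before it, and a 37-codon ORF (613) that began in exon 1, 32 bases before the main start, overlapped it by 82 bases.

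**Figure D2:**
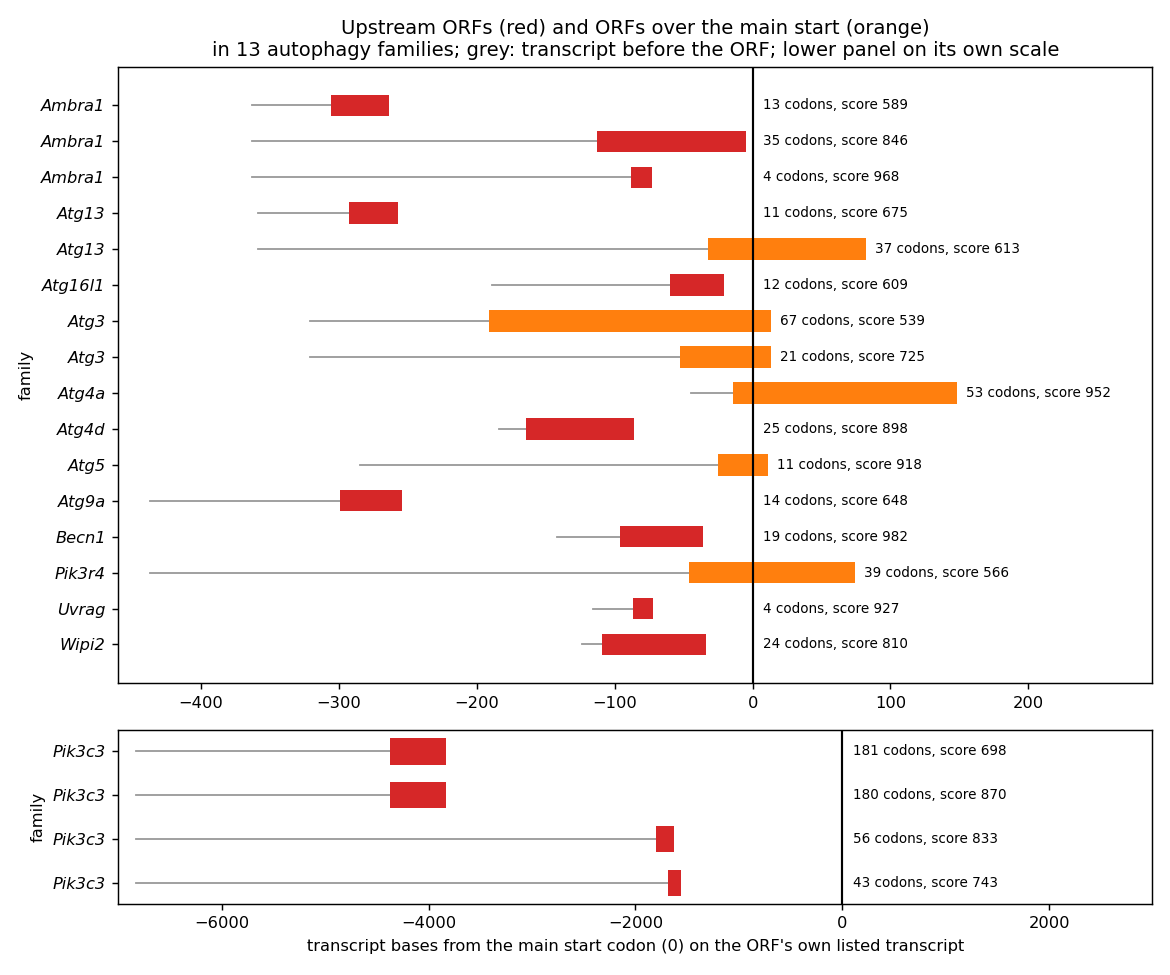
Position of the 20 upstream ORFs (red) and ORFs over the main start (orange) of 13 autophagy families, in transcript bases from the main start codon at 0, on each ORF's own listed transcript; grey lines show the transcript before the ORF, and Pik3c3 has its own scale in the lower panel. Apart from Pik3c3, the ORFs begin within 306 bases of the main start, and those of Atg3, Atg4a, Atg5, Atg13 and Pik3r4 cross it.

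The gap between the stop of an upstream ORF and the main start had a median of 170 bases over the 14 member ORFs (lowest 5, highest 3831), and 117 over 2674 ORFs of the whole list. It was at most 500 bases in 10 of 14, against 2388 of 2674 in the whole list, and the other 4 were those of Pik3c3. The overlap of the 6 ORFs that run over the main start had a median of 43.5 bases, next to 47 in the whole list. Of the 20, 6 scored above their own main ORF (30.0%, against 33.1% of 3549 in the whole list): those of Becn1, Uvrag, Atg4a and Wipi2 and the 180- and 56-codon ORFs of Pik3c3.

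A second start in the frame of the main ORF, with the same stop codon, was listed in 7 of 38 families (18.4%, interval 7.74 to 34.3, against 23.0% of all families). The start of the 9 such ORFs lay a median of 29 codons inside the main ORF, next to 23 over 3179 ORFs of the whole list. In 3 of 9 the inner start scored above the longest ORF, and in the whole list 42.7% of 3406 second starts did. Those 3406 also include starts that could not be placed inside the main ORF.

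The clearest gap in score was in Gabarapl1, an ATG8 protein of the GABARAP branch. The longest ORF had 121 codons and a score of 542, and the start 4 codons inside it, giving 117 codons, scored 963 (chromosome 6, plus strand, 129483465 to 129491185). The other GABARAP genes were listed with main ORFs of the same 117 codons, Gabarap at 991 and Gabarapl2 at 987. In this branch, then, the ORF of 117 codons had the high score in each gene. Map1lc3a (LC3A) showed the opposite order: 138 codons scored 804, the start 17 codons inside (121 codons) 553, and a start 49 codons inside (89 codons, exon 3) 513, on chromosome 2, 155102292 to 155103373. Map1lc3b (LC3B), the usual marker of autophagosomes, had a single ORF of 125 codons with a score of 991.

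The kinases Ulk1 and Ulk2, which start autophagy when nutrients are low, both had low scores for their longest ORF and higher ones inside. In Ulk1, 1146 codons scored 603, and the start 115 codons inside, in the same exon, scored 692 with 1031 codons (chromosome 5, minus strand, 111215191 to 111239028). In Ulk2, 1023 codons scored 578, and the start 31 codons inside, in exon 2, scored 758 with 992 codons (chromosome 11, minus strand, 61591283 to 61668036). Which of these ORFs is the annotated protein was not tested, since no protein sequence was used here.

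In the remaining families with a second start the inner one scored lower. Becn1 had a start 10 codons inside (438 codons, 521 against 828). Wipi1, a PI3P effector related to Wipi2, had a start 29 codons inside (405 codons, 528 against 727). Wipi2 had starts 17 and 59 codons inside, with 445 and 403 codons and scores of 732 and 573 against 739.

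**Figure D3:**
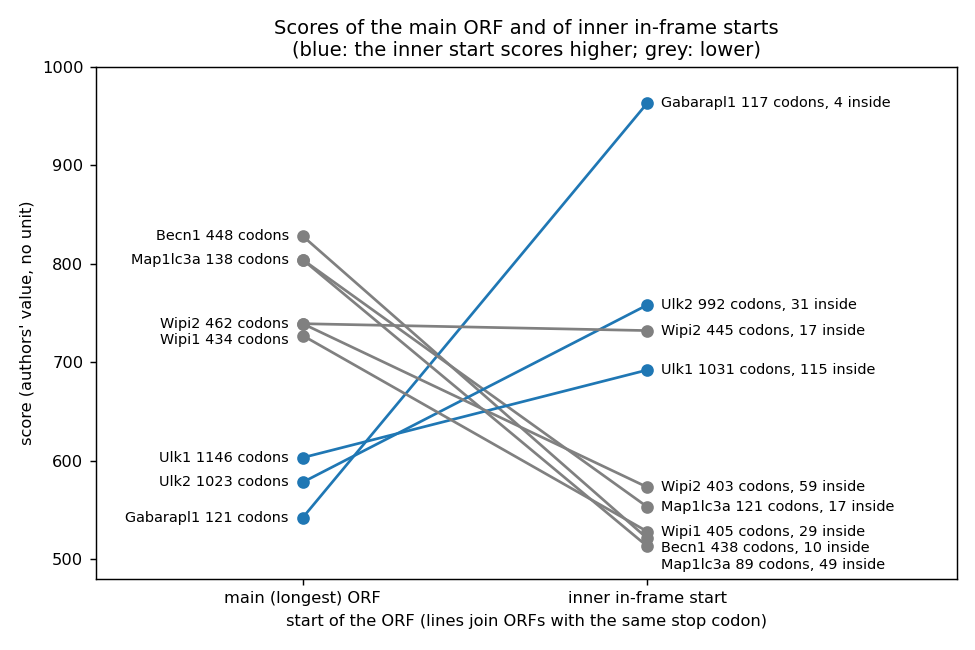
Score of the longest ORF (left) and of the inner in-frame starts with the same stop codon (right) for 9 inner starts of 7 autophagy families; each line joins an inner start to its main ORF. The lines rise for Gabarapl1, Ulk2 and Ulk1 (blue) and fall for Becn1, Map1lc3a, Wipi1 and Wipi2 (grey).

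Splice variants that share start and stop with the main ORF were listed in 8 families (21.1%, against 17.7% of all families). They were Ambra1 with 1209 and 1180 codons next to 1300, Atg10, an enzyme of the Atg12 conjugation, with 179 next to 211, Atg14, Atg16l1 with 607 and 588 next to 623, Atg2a with 1914 next to 1916, Atg4c with 416 next to 436, Nbr1 with 958 and 951 next to 988, and Sqstm1 with 404 next to 442. ORFs from 1 start mostly carried 1 score, as in 8 of the 9 member starts with several ORFs and 2053 of 2749 in the whole list, so a splice variant adds no separate score. In-frame isoforms with another stop were found in 2 families (5.26%, against 6.75%). Ambra1 had one of 853 codons (833), and Wipi1 had 3 that end at the same base, of 399 and 344 codons (both 647) and 127 codons (658).

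ORFs inside the main span, in another frame or in other exons than the main ORF, were listed in 4 families (10.5%, against 8.62%). In these 4 families the ORF was in another frame. Atg2a, a lipid transfer protein, had an 88-codon ORF (655) that began 8 bases after the main start, Atg4d one of 58 codons (778), Atg9a one of 41 codons (654) and Ulk3 one of 17 codons (565). Each scored below its main ORF. Gabarap had a 39-codon ORF (805) over its main stop, 1 family of 38 (2.63%, against 0.288%), and no member had an ORF downstream of the main stop, where 1.91% of all families had one.

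The stop codon of a main ORF lay more than 50 bases before the last exon junction of its listed transcript in 2 families (5.26%, against 6.25%): Atg4b (393 codons, score 985, 334 bases before the junction) and Map1lc3b (357 bases before it).

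A single ORF was listed for 12 of the 38 families (31.6%, against 43.7%): Atg12, Atg16l2, Atg2b, Atg4b, Atg7, Calcoco1, Gabarapl2, Map1lc3b, Optn, Rb1cc1, Tax1bp1 and Wdr45. Sqstm1 (p62), the receptor for ubiquitin-tagged cargo, had a main score of 987, and Tax1bp1, Calcoco1 and Optn, also cargo receptors, had 986, 985 and 965. Nbr1, a relative of p62, scored 833. None of the 5 had an upstream ORF or a second in-frame start, which 20.2% and 23.0% of all families had.

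Scores of the 38 main ORFs ran from 542 to 991 with a median of 926, the same as over all main ORFs of the list. The lowest were Gabarapl1 (542), Ulk2 (578), Ulk1 (603), Ulk3 (646) and Atg16l2 (652), and 3 of these 5 are ULK kinases. The highest were Gabarap and Map1lc3b (991), Gabarapl2 and Sqstm1 (987), and Atg10, Atg5 and Tax1bp1 (986). By role, the median was 987 for ATG8 proteins, 985 for cargo receptors, 947 for conjugation enzymes, 862 for lipid transfer, ATG9 and PI3P effectors, 850 for the PI3-kinase complex and 646 for the induction kinase complex. The last group was split, with Ulk1, Ulk2 and Ulk3 at 578 to 646, Rb1cc1 at 961 and Atg13 at 962, so its median is the value of Ulk3. Atg101 (948), listed under an older name, is not counted in that median. The member main ORFs had a median of 476 codons and 14.5 exons, next to 435 codons and 9 exons in the whole list, and their median leader of 179 bases was near the 186 of all main ORFs. The longest were those of Atg2b (2075 codons, 865) and Atg2a (1916 codons, 927).

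**Figure D4:**
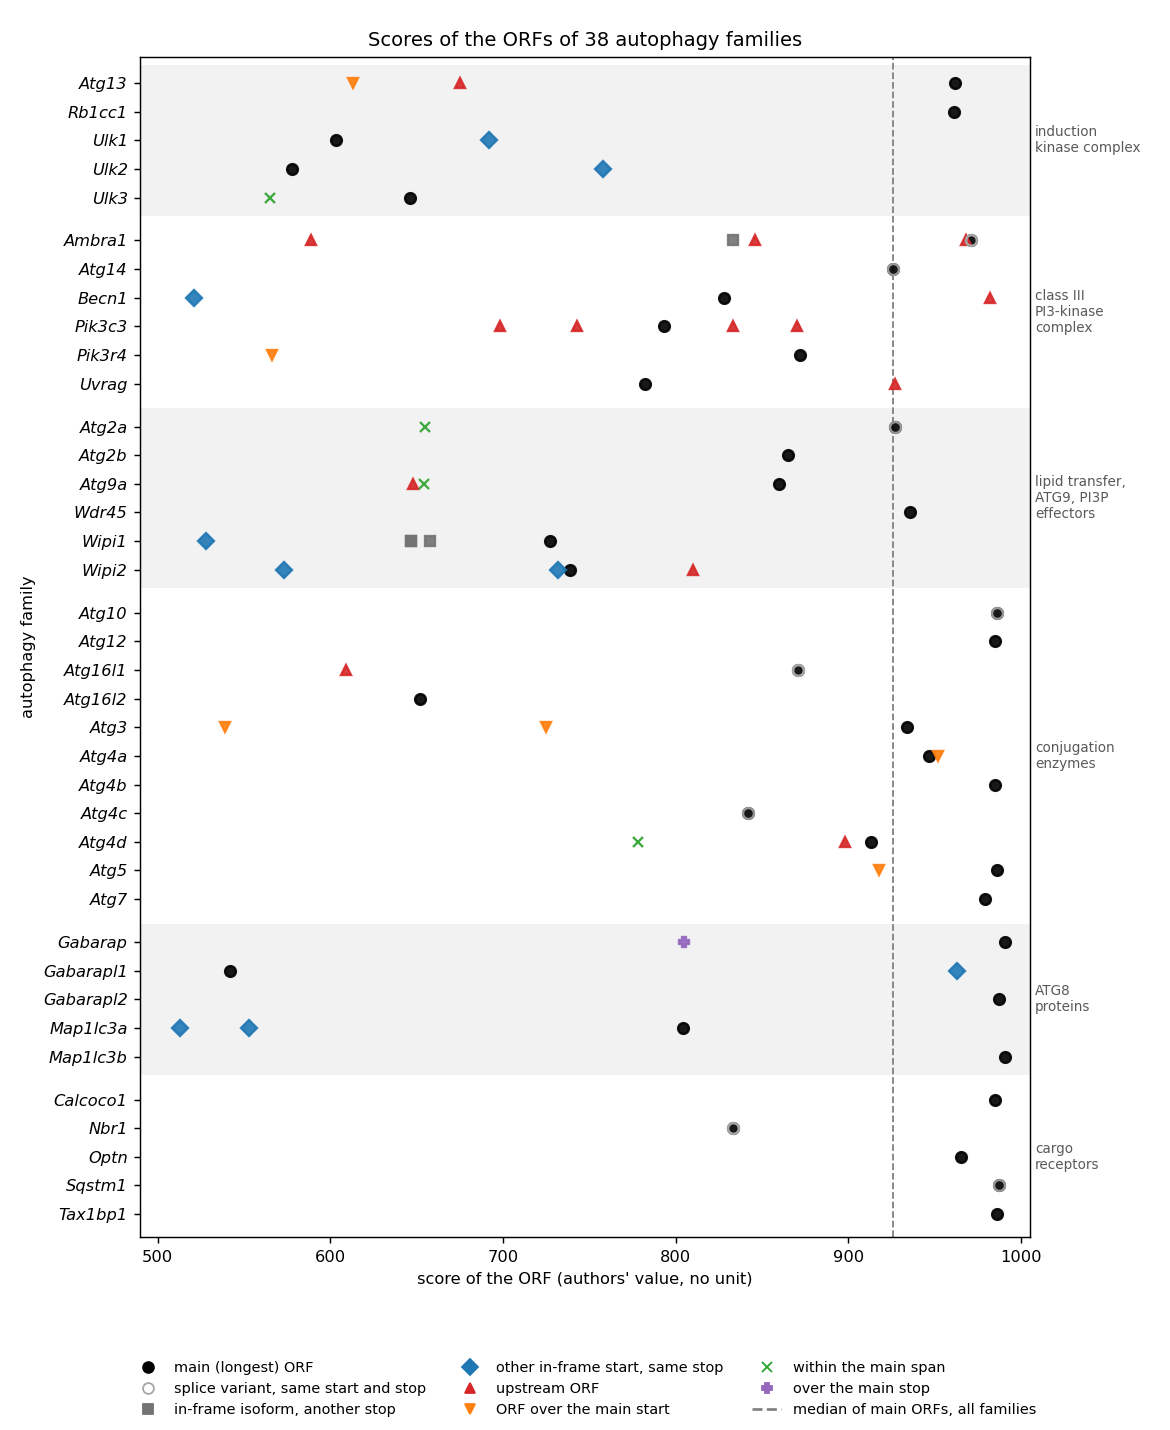
Score of each of the 87 ORFs of 38 autophagy families, in rows by family and grouped by role; symbols give the class of the ORF and the dashed line the median of all main ORFs, 926. The cargo receptor rows hold main ORFs and splice variants with no other class, and the main ORFs of Ulk1, Ulk2 and Ulk3 lie between 578 and 646.

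Of the genes given a role in this machinery, Ulk4 and Atg9b were not in the list, and Atg101, a stabiliser of Atg13, was present under an older name with a single ORF of 218 codons (948). Of 61 further genes of the pathway, 57 had an ORF, 14 an upstream ORF or one over the main start, and 10 a second in-frame start, next to 20.2% and 23.0% of all families. Regulators and membrane factors held 7 of the 14 carriers, from 14 genes. Nrbf2, another subunit of the class III PI3-kinase complex, had 3 ORFs over its main start, of 59, 72 and 82 codons (scores 658, 659 and 570 against 817), with a common stop and an overlap of 128 bases. Bcl2, which binds Beclin 1, had upstream ORFs of 16 and 27 codons (500 and 619), and Zfyve1, a PI3P-binding protein, had upstream ORFs of 22 and 2 codons (500 and 839).

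Upstream signalling held 3 carriers of 14 genes, of which 11 had an ORF. Prkag2, a subunit of the energy sensor AMPK, had upstream ORFs of 3 and 69 codons (662 and 517), Rheb, the activator of the mTOR complex, one of 6 codons (508) that stopped 13 bases before its main start, and Tsc1 one more. Tfe3, a transcription factor of lysosome and autophagy genes, had an upstream ORF of 2 codons (659), and Trp53inp1, which binds ATG8 proteins, one of 9 codons (779). Among 16 genes of fusion with lysosomes, 3 were carriers, among them Plekhm1, an adaptor of that fusion, with a 42-codon ORF over its main start (849 against 806). No upstream ORF and no second in-frame start was listed in 12 further genes of selective autophagy, of which 11 had an ORF. Prkaa2 and Prkag1, subunits of AMPK, were not in the list.

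Second in-frame starts stood in Lamp1, a lysosomal membrane protein, with 3, of which the 379-codon ORF scored 889 against 778 for the longest of 407 codons. Foxo3, a transcription factor of autophagy genes, had 2, of 672 and 240 codons (609 and 739 against 788). In Trp53inp2, ORFs of 221 and 181 codons from a start 6 codons inside scored 854, against 532 for the longest of 227, and in Prkag2 the ORFs of 562 and 325 codons scored 703 and 513 against 725. Bcl2l1, an inhibitor of cell death that binds Beclin 1, had a start 13 codons inside (849 against 937).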

How the data were processed

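Ribosome footprint libraries were grouped from their labels. Bowtie2, TopHat and mm9 are named in the submitters' processing notes without version or role, and which ORF caller, settings and transcript models were used was not given in the sources used here. Per the labels, the authors deposited 1 list for all libraries, with a whole-number score per ORF and the exon blocks of a transcript. The score's scale is unknown, and it is used only to describe ORFs within this list. Presence and score can depend on depth and on expression, of which the list holds no measure.

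Families were formed from ORF names within 1 chromosome and strand. The longest ORF (the higher-scoring where tied) was taken as main, and other ORFs were classed by position and frame against it, with rules tested on simulated data. Codons exclude the stop codon; the length in the name then matched the coding bases of all 22367 ORFs. All 38 member names were RefSeq symbols (GRCm38.p6). Every member family was named; of the wider pathway, the rule took up to 8 genes with most upstream ORFs, 5 with most in-frame starts and 3 with no ORF, ties by name, and Tsc1 and Atg101 were added after their values were seen. The value of 1 named gene is not reported here. Members and lists were chosen with earlier results of these data known. Python 3.11.15 and scipy 1.17.1 were used. Alternatives were stricter scores and lengths, 1 ORF per stop codon, another main ORF and narrower or wider classes.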

Additional observations from a re-analysis of the deposited data

How the results depend on the processing

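The count of 13 autophagy families with an upstream ORF was 3 of 24 families with an ORF left among scores of 900 or more (5.7% of all families then), 6 with a minimum of 30 codons counting the stop (8.76%) and 8 with main ORFs chosen by score in place of length (16.4%). In the last setting Atg4a, Becn1, Pik3c3, Uvrag and Wipi2 no longer counted, since their upstream ORF itself scored highest, which left the class III PI3-kinase complex with 2 of 6 families. Among scores of 900 or more, the longest ORF left was taken as main. In Becn1 and Uvrag this was the upstream ORF (982 and 927), and in Gabarapl1 the inner start (963). Becn1 and Uvrag were thus counted there without an upstream ORF, and Gabarapl1 without a second start, although those ORFs stayed in the list. The count was 9 without ORFs over the main start (16.3% of all families), and 12 with gaps of at most 500 bases (18.6%), a setting chosen after seeing the data, without Pik3c3. The 7 families with a second in-frame start became 0 of 24 among scores of 900 or more (0.427% of all families then) and, by construction, 0 with 1 ORF per stop codon, and 15 with splice variants counted (37.8% of all families). The median main score stayed within 926 to 975. Of 136 values of single genes under alternatives, 97 stayed within 1.5 times and 33 became 0. The planned comparison with RefSeq protein lengths was not run, because no protein table was used here. No paired analysis was possible because the list has no value per library. Depth per ORF is unknown.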

Other observations

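In Gabarap, the main ORF began in exon 8 of 11 of its listed transcript, after 3113 bases, and in Nbr1 in exon 4 of 24, after 1040 bases. Whether the listed transcript of Gabarap joins a neighbouring gene was not tested. Atg4b and Map1lc3b, whose main stop lay before the last junction, were listed with a single ORF each, and splice forms without that junction, if any, are not analysed here.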
